A study of Homo sapiens with 4 samples.

Results

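The genes described here are the zinc finger genes of chromosome 19. They are the protein-coding genes that lie on chromosome 19 in GENCODE release 44 on GRCh38 and whose symbol is ZNF followed by digits only. This rule gave 240 genes of the 58522 in the deposited table, all 240 matched by Ensembl identifier. The rule uses no expression value, but it was set with earlier results of these data known. RNA-seq had been carried out in Ishikawa cells, an endometrial adenocarcinoma line used as a model of the endometrial epithelium. There were 2 libraries from cells given a negative control shRNA and 2 from cells given an shRNA against *CDYL* (*CDYL*-sh), and the question was which transcripts differ when *CDYL* is silenced. The labels give no other treatment, genotype or time. They do not say which hairpin each *CDYL*-sh library carried, or if cells were grown separately for the libraries within a group. The final digits of the *CDYL*-sh sample titles also occur in the paper's hairpin names, and may mark either hairpins or replicates. All p-values therefore measure only the spread between these libraries, which may be technical.

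Most ZNF genes of chromosome 19 encode proteins with a long array of C2H2 zinc fingers, each finger a short fold that holds a zinc ion and contacts a few bases of DNA. Many of them also carry a KRAB box, which binds TRIM28 (KAP1). TRIM28 brings the histone methyltransferase SETDB1, HP1 proteins and the NuRD deacetylase complex, and the bound DNA, often a retroelement, gains H3K9 methylation and is silenced. The genes arose by repeated local duplication and lie side by side in clusters. CDYL is a chromodomain protein that binds methylated histone H3 and acts as a transcriptional corepressor.

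In the translated canonical coding sequences, a KRAB box was matched in 206 of the 240 genes and not in 34. The number of complete C2H2 fingers ran from 1 to 36 with a median of 12, and *ZNF208* had the most. Because the fingers are copies of each other, the coding sequences share short runs. A link between neighbouring fingers is shown here as one 24-base run that was searched in all canonical coding sequences. The run was chosen because no other 24-base run stood in more of the 240 genes, so its shares below are a description. It is printed with its last codon, the first codon of the next finger, in capitals.
linker run: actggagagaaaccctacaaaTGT
The run stood in 41 of the 240 genes (17.1%), in 151 copies that were all in the reading frame, and 149 of these copies led into a complete finger. *ZNF208* held 16 copies. The run also stood in 24 of the 19806 protein-coding genes outside the 240 (0.121%), and 20 of these 24 were among the 236 ZNF genes on other chromosomes. Over longer stretches the genes differed in how much they shared. In 122 of the 240 genes, no 100-base window of the annotated transcripts was shared with any other gene, ZNF or not. In 37, over 10% of the windows were so shared. The expected counts, in which a read that matches several places is divided, were not whole in at least 1 library for 130 of the tested ZNF genes of chromosome 19 (56.0%), against 41.1% of all tested genes (whole within 0.005).

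The targeted gene was lower in the knockdown. *CDYL* measured 50.4 and 53.0 CPM (read counts scaled to the size of each library) in the control libraries and 11.4 and 9.70 CPM in the *CDYL*-sh libraries (log2 fold change −2.28 ± 0.13 SE, edgeR adjusted p = 4.26e-09). Total counts were between 22341852 and 27688447 per library, and 16158 genes had enough counts to be tested. Of 6 epithelial markers, all 6 were at 1 FPKM or more in every library, and their summed level ran from 2332 to 2612 FPKM. Markers of other cells were low. Summed stromal markers were 5.87 and 5.77 FPKM in control and 3.37 and 5.32 FPKM in *CDYL*-sh, endothelial markers 0.61 and 0.83 against 1.87 and 1.78 FPKM, and leukocyte markers 5.0 and 7.36 against 13.8 and 11.5 FPKM. The defining leukocyte markers *PTPRC*, *CD3E*, *MS4A1* and *NCAM1*, the endothelial marker *TEK* and the stromal markers *DCN*, *LUM*, *COL3A1* and *PDGFRA* were each under 0.1 FPKM in every library. Of these markers of other cells, however, the macrophage marker *CD68* rose from 7.75 and 11.6 to 20.6 and 18.1 CPM (0.998 ± 0.18, adjusted p = 0.000568) and the endothelial marker *PECAM1* from 1.62 and 1.96 to 5.21 and 6.34 CPM (1.65 ± 0.25, adjusted p = 0.000138). The endothelial marker *CDH5* went the other way, from 0.61 and 0.87 to 0.25 and 0.32 CPM, and did not pass (−1.19 ± 0.50, adjusted p = 0.0897). *VWF* did not pass either (0.62 ± 0.32, adjusted p = 0.165). The collagen gene *COL1A1* of the stromal list fell from 13 and 16.4 to 8.82 and 7.75 CPM (−0.82 ± 0.17, adjusted p = 0.00206). Among the 6 epithelial markers, 1 was called higher and 1 lower. The part of these changes in the results below was not tested. In bulk RNA, fewer cells of a kind and less RNA per cell cannot be told apart.

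The ZNF genes of chromosome 19 were present at low levels. Of the 240, 232 passed the filter on low counts and 8 did not. *ZNF560*, *ZNF536* and *ZNF835* were listed at 0 in all 4 libraries, and *ZNF90*, *ZNF575*, *ZNF541*, *ZNF534* and *ZNF154* never exceeded 14 counts. ZNF536 is a brain-enriched repressor of neuronal differentiation, ZNF541 acts in meiotic germ cells, and the *ZNF154* promoter is methylated in many carcinomas. The median of the tested ZNF genes was 5.43 CPM against 15.9 CPM over all tested genes, and 174 of the 232 had a mean under 10 CPM. Per length, the medians were 2.61 and 7.19 FPKM. The median standard error of the log2 fold change was 0.21 for the ZNF genes and 0.15 for all genes. Together they gave 2050 and 1859 CPM in the control libraries and 2082 and 2130 CPM in the *CDYL*-sh libraries. The summed level of control 2 was thus the lowest of the 4, and 173 of the 232 genes were higher in control 1 than in control 2.

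At an adjusted p under 0.05, 29 of the 232 ZNF genes were higher in *CDYL*-sh (12.5%) and 11 were lower (4.74%), while 192 did not pass. Over all tested genes, 13.6% were higher, 12.1% lower and 25.7% changed in either direction, against 17.2% in either direction for these ZNF genes. With all 4 libraries, the share of higher genes was near that of all genes, and the share of lower genes was smaller. The former depended on the libraries kept. Without control 1, 42 ZNF genes were higher (18%, all genes 12%) and 6 lower (2.58%, all genes 8.27%). Without control 2, 21 were higher (9.05%, all genes 12.4%) and 17 lower (7.33%, all genes 11.5%). The counts were 15 higher (6.44%, all genes 9.97%) and 8 lower (3.43%, all genes 9.11%) without library 1 of *CDYL*-sh. They were 10 higher (4.29%, all genes 6.93%) and 1 lower (0.429%, all genes 5.52%) without its library 2. ZNF genes by the same symbol rule on other chromosomes had 26 higher (11.9%) and 32 lower (14.6%) of 219, and the other protein-coding genes of chromosome 19 had 93 higher (11.8%) and 95 lower (12%) of 791. The median log2 fold change was 0.17 in the ZNF genes of chromosome 19, −0.08 in those of other chromosomes, 0.00 in the other genes of chromosome 19 and 0.01 over all genes. For the ZNF genes of chromosome 19 it was 0.29 without control 1 and 0.08 without control 2. Both *CDYL*-sh libraries lay above both controls for 99 of the 232 (42.7%, all genes 32.5%) and below both for 45 (19.4%, all genes 31.8%). All 40 called genes were among these. Only 3 called genes differed by more than 2-fold.

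The largest rise was that of *ZNF181* (chr19:34734155-34745378, plus strand), a KRAB gene with 11 fingers. It measured 2.05 and 1.06 CPM in control and 3.54 and 4.44 CPM in *CDYL*-sh, which is a log2 fold change of 1.31 ± 0.31 (adjusted p = 0.00456). The groups did not overlap, but the level was low and the control libraries themselves differed. *ZNF524* (chr19:55600022-55603138), whose protein has 4 fingers and binds telomeric repeats, had 6.75 and 5.84 CPM in control and 11.8 and 15.5 CPM in *CDYL*-sh (1.10 ± 0.19, adjusted p = 0.000345). This gene has no KRAB match and an exonic GC content of 65.8%, and its gene body overlaps that of *FIZ1*. *ZNF14*, a KRAB gene with 17 fingers, rose from 4.13 and 3.39 CPM to 7.11 and 8.57 CPM (1.04 ± 0.21, adjusted p = 0.00153).

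The most abundant gene that rose was *ZNF146* (chr19:36214602-36238771), which encodes a protein made of little besides its 10 fingers and is overexpressed in several carcinomas. Its levels were 42.4 and 34.0 CPM in control and 66.8 and 72.6 CPM in *CDYL*-sh (0.87 ± 0.12, adjusted p = 7.53e-05). It overlaps *ZNF565*. Of the other leading genes, *ZNF616* rose from 6.14 and 4.56 to 10.1 and 9.97 CPM (0.90 ± 0.19, adjusted p = 0.00244). *ZNF816* (0.86 ± 0.24, adjusted p = 0.0135) and *ZNF845* (0.84 ± 0.24, adjusted p = 0.0158), with 14 and 26 fingers, rose from 2.41 and 3.13 to 5.32 and 4.80 CPM and from 3.73 and 2.45 to 5.36 and 5.89 CPM. *ZNF471* was close to the threshold, with 1.80 and 1.06 CPM in control and 2.57 and 2.90 CPM in *CDYL*-sh (0.90 ± 0.32, adjusted p = 0.0494), and no longer passed with offsets for GC content and length (adjusted p = 0.0541). *ZNF471* also lost its call with DESeq2 (adjusted p = 0.119), by library size only (0.0510) and without control 2 or without either *CDYL*-sh library (adjusted p from 0.0998 to 0.236). *ZNF816* lost its call without control 1 (0.0712) or library 1 of *CDYL*-sh (0.0909), and *ZNF845* without control 2 (0.0681) or library 2 of *CDYL*-sh (0.0906). The 29 higher genes ran from 0.46 to 1.31 in log2 fold change.

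Among the genes that fell, *ZNF556* (chr19:2867335-2883445, plus strand) led. It measured 12.4 and 12.3 CPM in control and 6.75 and 6.12 CPM in *CDYL*-sh (−0.93 ± 0.17, adjusted p = 0.000810). The spread within each group was small beside the difference. *ZNF552* fell from 9.41 and 8.03 to 5.21 and 5.03 CPM (−0.76 ± 0.19, adjusted p = 0.00721), and *ZNF584* from 20.6 and 23.8 to 14.8 and 13.6 CPM (−0.64 ± 0.14, adjusted p = 0.00311). *ZNF772* had 22.4 and 15.2 CPM in control and 13.4 and 11.2 CPM in *CDYL*-sh (−0.61 ± 0.18, adjusted p = 0.0170), with control 1 well above the other 3 libraries. The remaining genes named for their size of fall were *ZNF726* (−0.56), *ZNF875* (−0.51), *ZNF738* (−0.51) and *ZNF8* (−0.45), with adjusted p-values between 0.0141 and 0.0406. *ZNF726* did not pass with DESeq2 (0.0896) or when scaled by library size only (0.0536). Without library 2 of *CDYL*-sh, *ZNF556* was the only one of these 8 that still passed, and the adjusted p-values of the other 7 were then between 0.0507 and 0.297. Without control 1, *ZNF772*, *ZNF726* and *ZNF8* did not pass (0.0720 to 0.196), and without library 1 of *CDYL*-sh, *ZNF726* and *ZNF738* did not (0.126 and 0.0850). *ZNF738* shared 14.96% and *ZNF8* 18.8% of their 100-base windows with other genes, ZNF or not, as did *ZNF492* (18.4%) among those that rose. The 11 lower genes ran from −0.36 to −0.93 and all lay in the upper part of the abundance range. Of the 116 genes above the median CPM of the ZNF genes, 11 were lower (9.48%, all genes 12.1%) and 18 higher (15.5%, all genes 13.6%). Of the 116 below it, 11 were higher (9.48%) and 0 lower in edgeR, with 2 lower at an unadjusted p under 0.05. DESeq2 called 6 of these 116 higher and limma-voom 12, both with 0 lower.

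The promoters of the genes with the largest rise and the largest fall are shown for their base composition, which differed widely. Each is the RefSeq window on GRCh38.p14 from 250 bases before to 50 after the start that RefSeq gives, which for *ZNF181* lies downstream of the GENCODE start above, with every CG dinucleotide in capitals. They lie at chr19:34733993-34734292 and chr19:2867085-2867384, both on the plus strand.
ZNF181: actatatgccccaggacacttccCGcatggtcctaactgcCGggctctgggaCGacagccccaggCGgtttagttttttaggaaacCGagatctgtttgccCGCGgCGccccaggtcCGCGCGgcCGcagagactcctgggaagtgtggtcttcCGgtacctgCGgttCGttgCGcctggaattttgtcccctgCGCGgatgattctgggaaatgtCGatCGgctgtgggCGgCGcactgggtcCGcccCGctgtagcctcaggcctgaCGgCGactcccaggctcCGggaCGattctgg
ZNF556: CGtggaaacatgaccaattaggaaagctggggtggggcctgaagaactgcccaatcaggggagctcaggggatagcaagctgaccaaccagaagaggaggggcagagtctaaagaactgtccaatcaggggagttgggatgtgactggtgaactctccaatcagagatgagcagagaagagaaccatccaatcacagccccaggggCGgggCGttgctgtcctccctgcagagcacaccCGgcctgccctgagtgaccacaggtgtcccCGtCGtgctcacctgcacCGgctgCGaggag
The window of *ZNF181* held 28 CG dinucleotides and that of *ZNF556* held 8. RefSeq gave a window for 210 of the 240 ZNF genes, and their median was 20 against 14 over 35116 promoters. More than 10 CG dinucleotides stood in 89.0% of the ZNF promoters and in 54.7% of all. The median was 23.5 for the higher and 18 for the lower genes. It was 25 for the genes from *ZNF175* to *ZNF331*, a stretch described below with 16 of the 29 higher genes and 0 lower. These are counts of letters, no methylation was measured, and a link to the direction of change was not tested.

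The higher genes were unevenly placed along the chromosome. The 240 genes were divided wherever the starts of neighbours lay more than 1 Mb apart, which gave 16 groups, 9 of them with at least 5 tested genes. The group from *ZNF175* to *ZNF331* (chr19:51571283-53580269) held 39 of the genes, of which 38 were tested. In it 16 were higher (42.1%) and 0 were lower, and the median log2 fold change was 0.42. It was singled out after the values of all groups had been seen, so its count is a description. It held 16.4% of the tested genes and 55.2% of the higher ones. The other 194 genes had 13 higher (6.70%) and 11 lower (5.67%). Of the 38, 31 had a positive log2 fold change (81.6%, all genes 51.2%). In 24 both *CDYL*-sh libraries lay above both controls (all genes 32.5%), against 5 in which they lay below (all genes 31.8%). The share of positive changes was not particular to this group. It was 80.6% in the group at chr19:19668796-24129968 and 88.0% in that at chr19:11483427-12640098. Summed, the genes from *ZNF175* to *ZNF331* gave 264.2 and 228.1 CPM in control and 311.8 and 322.5 CPM in *CDYL*-sh, a ratio of 1.29.

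**Figure D1:**
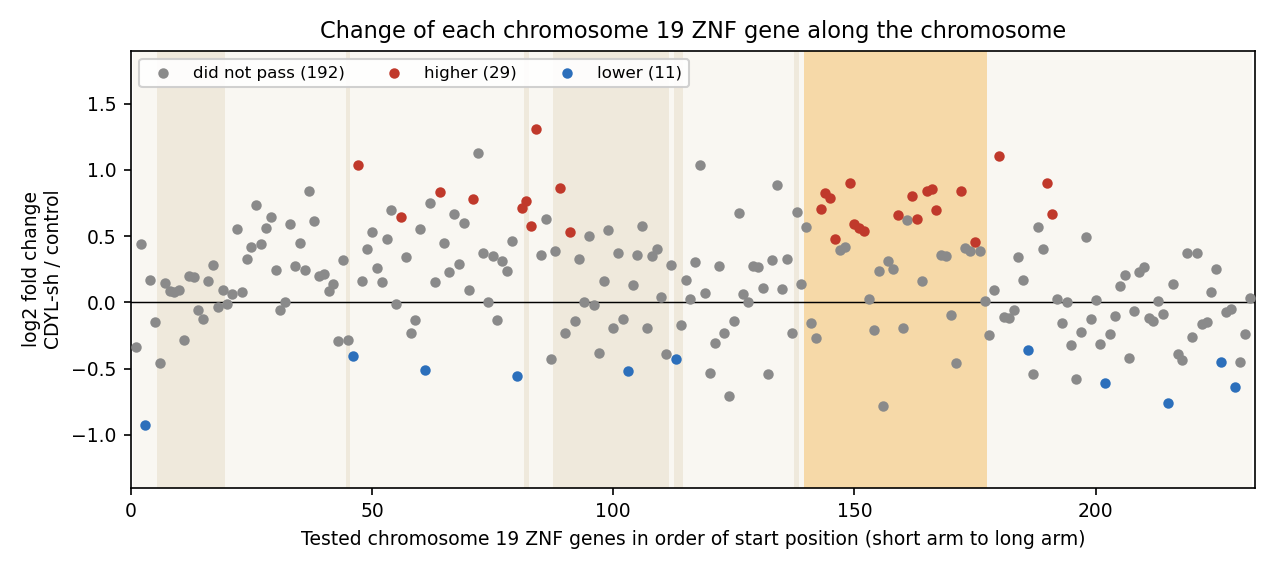
Log2 fold change of the 232 tested ZNF genes (vertical axis, *CDYL*-sh over control) in their order along chromosome 19 (horizontal axis), with position groups shaded in turn, red points for genes called higher, blue for genes called lower and an orange band for the group from *ZNF175* to *ZNF331*. In that group 31 of 38 points lie above 0 and 16 are called higher. Above 0 lie 22 of 55 in the last group and 29 of 36 in the group at chr19:19668796-24129968. The group at chr19:11483427-12640098 has 22 of 25 above 0, and 51.2% of all tested genes are positive.

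The 16 genes began with *ZNF613* and ended with *ZNF761*, with 33 tested ZNF genes over that stretch. *ZNF616*, *ZNF816* and *ZNF845*, given above, were among them. *ZNF350* encodes ZBRK1, a BRCA1-binding repressor, and measured 3.23 and 3.43 CPM in control and 5.25 and 6.71 CPM in *CDYL*-sh. *ZNF83*, the one gene of the 38 without a KRAB match, had 12.3 and 10.6 CPM in control and 16.8 and 19.5 CPM in *CDYL*-sh. *ZNF480* had 10.02 and 9.76 CPM in control and 14.1 and 14.6 CPM in *CDYL*-sh. All 3 were chosen for naming after their values were seen, and in each the groups were apart. The other 10 were *ZNF613*, *ZNF615*, *ZNF614*, *ZNF836*, *ZNF766*, *ZNF28*, *ZNF468*, *ZNF888*, *ZNF160* and *ZNF761*. The 16 changes were moderate, from 0.46 to 0.90 in log2 fold change. *ZNF28* and *ZNF468* overlap each other, and the difference in mean FPKM of *ZNF28* had the opposite sign to that of its counts, with 37.8 and 29.9 FPKM in control and 9.38 and 27.4 FPKM in *CDYL*-sh. It was the 1 exception among the 40 called genes. *ZNF836* overlaps *PPP2R1A*, and *ZNF816* a read-through gene, *ZNF816-ZNF321P*. Over all 40 called genes, 11 overlap another protein-coding gene.

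**Figure D2:**
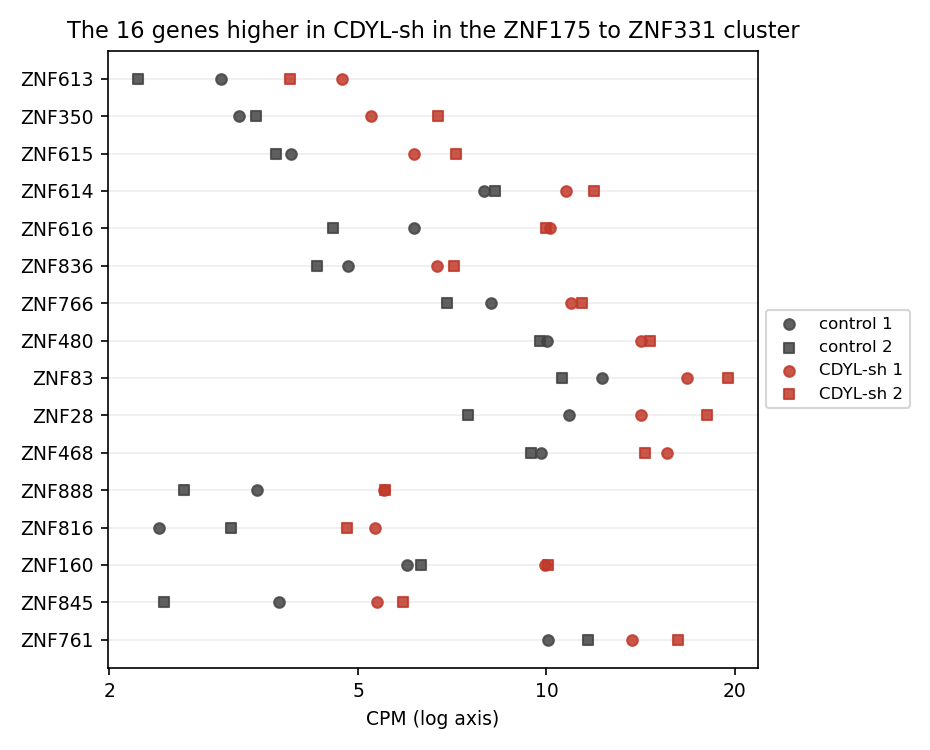
Level in each of the 4 libraries (CPM, logarithmic axis) of the 16 called genes between *ZNF175* and *ZNF331*, with control and *CDYL*-sh libraries in different colours. In each of the 16 genes both *CDYL*-sh points lie to the right of both control points, as for *ZNF616* with 6.14 and 4.56 against 10.1 and 9.97 CPM. The genes were picked by their calls in these same libraries, so the separation follows from the choice.

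The count of 16 rested on few libraries. It was smaller without control 2 or either *CDYL*-sh library, and so was the number of higher genes among all tested. Such fits leave 1 library in a group, so only the size of change is given here. For the 38 genes the median was 0.52 without control 1 (all genes 0.01) and 0.30 without control 2 (all genes 0.01). It was 0.39 without library 1 of *CDYL*-sh (all genes −0.004) and 0.43 without its library 2 (all genes 0.0001). The count was also taken in genes that have no window shared with any other gene, ZNF or not, and in genes with whole counts. Of the 15 tested genes of the group with no such window, 7 were higher (46.7%, all genes 13.6%) and 0 lower (all genes 12.1%). Of the 14 with whole counts in all libraries, 8 were higher (57.1%) and 0 lower. In the fit that takes in exonic GC and length, each subset had 6 higher and 1 lower (all genes 16.7% and 14.0%). The group was singled out after its values were seen, so high counts in its subsets partly follow from that choice. The part of reads shared between genes was not tested. DESeq2 called 12 of the 38 higher and limma-voom 14, both with 0 lower, and 1 gene of the 38 was lower at an unadjusted p under 0.05 in edgeR. The other protein-coding genes of the same stretch were few. Of the 5 tested, *SPACA6*, *FPR1*, *PPP2R1A*, *ERVV-2* and an unnamed gene, 0 passed in edgeR, DESeq2 or limma-voom, 1 had an unadjusted p under 0.05 in edgeR, and their median log2 fold change was 0.02.

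The other groups are given for comparison. The group at the end of the long arm (chr19:55476617-58481230) had 55 tested genes, of which *ZNF524*, *ZNF471* and *ZNF470* were higher and *ZNF552*, *ZNF584*, *ZNF772*, *ZNF8* and *ZNF444* were lower. Its median was −0.08, and its summed levels were 711.9 and 679.6 CPM in control and 678.6 and 675.3 CPM in *CDYL*-sh, a ratio of 0.97. With offsets for GC content and length its median was 0.00. The group next to the centromere on the short arm (chr19:19668796-24129968), which holds *ZNF91* and *ZNF93*, had 5 higher and 3 lower of 36, with a median of 0.35 that was 0.14 with the offsets. Of these 36, 29 had a positive log2 fold change (80.6%), and in 22 both *CDYL*-sh libraries lay above both controls, against 4 below. In the short-arm group at chr19:11483427-12640098, 22 of 25 genes had a positive log2 fold change and the median was 0.27, yet 0 passed in edgeR, DESeq2 or limma-voom in either direction. At an unadjusted p under 0.05 in edgeR, 4 of these 25 were higher and 0 lower. The groups with 14 and 23 tested genes also had 0 called by edgeR, with 1 and 3 genes at an unadjusted p under 0.05, and limma-voom called 1 gene of the second. The small group of *ZNF181* and *ZNF302* had 2 higher of 5.

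**Figure D3:**
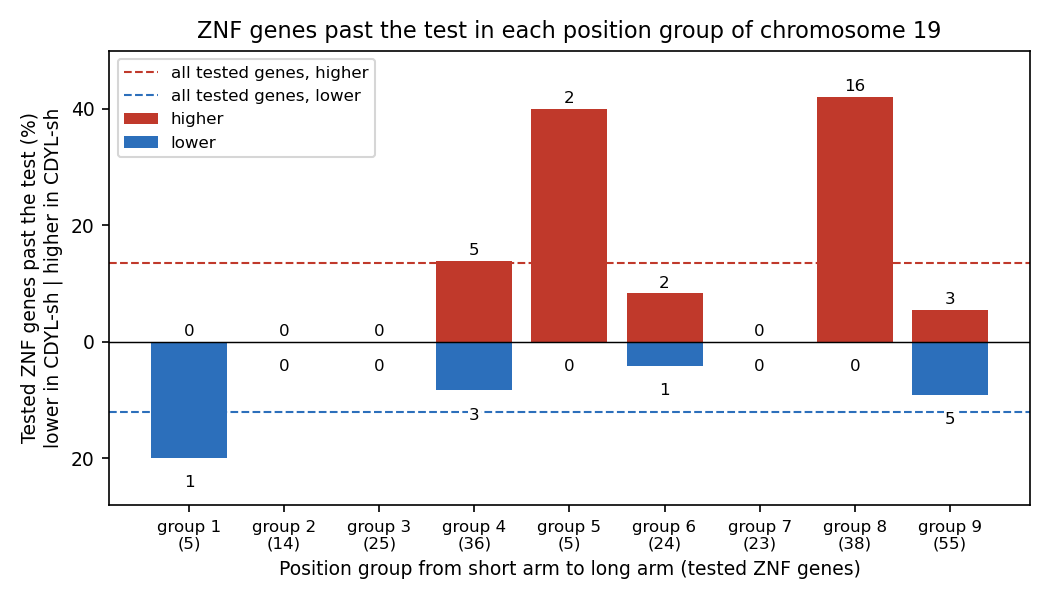
Percent of tested genes that were higher (upward bars) or lower (downward bars) in *CDYL*-sh in each of the 9 position groups with at least 5 tested genes, in order along the chromosome, with the number tested in brackets and dashed lines at the 13.6% and 12.1% of all genes. Group 8 runs from *ZNF175* to *ZNF331* and reaches 42.1% higher, and group 9 is the last of the long arm.

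Base composition was set beside these differences, because the ZNF genes are poor in GC. The median GC content of the merged exons was 43.0% for the tested ZNF genes and 48.7% for all tested genes, and 71.1% of the ZNF genes were under 45%, against 35% of the others. The range was 33.9% to 70.9%. The medians were 41.0% for the higher and 48.0% for the lower genes. Over the 232 genes the log2 fold change fell with GC content (Spearman rho −0.42, Pearson r −0.30, n = 232 genes of the same 4 libraries), and over all other tested genes rho was −0.20. In the bin of 40 to 45% GC, 20 of 128 ZNF genes were higher (15.6%), against 580 of 3243 other genes (17.9%), and 2 of 128 were lower (1.56%), against 7.99%. Under 40% GC, 7 of 37 ZNF genes were higher (18.9%), against 27.6% of the other genes in that bin. In both bins the share of higher genes was smaller among the ZNF genes than among other genes, and the difference was not tested.

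Within the 40 to 45% bin the position group from *ZNF175* to *ZNF331* was compared with the other ZNF genes. Of its 32 genes in the bin, 14 were higher (43.8%), against 6 of the 96 other ZNF genes (6.25%). When each library was given offsets for exonic GC content and length, 12 of the 32 and 3 of the 96 were higher, with 17.3% of the other genes in the bin. With these offsets 25 ZNF genes were higher in all (10.8%, all genes 16.7%) and 12 were lower (5.17%, all genes 14.0%), the median log2 fold change was 0.14 and rho was −0.19. In both fits 20 of the 29 higher and 9 of the 11 lower genes were called, and 0 called genes turned direction. In the group from *ZNF175* to *ZNF331*, 13 were higher and 1 was lower, *ZNF677*, with a median of 0.35. The 3 that lost their call there were *ZNF480* (0.33, adjusted p = 0.0758), *ZNF614* (0.35, adjusted p = 0.0987) and *ZNF761* (0.35, adjusted p = 0.0994). Of the leading genes, *ZNF181* had 1.22 with the offsets, *ZNF524* 1.05, *ZNF616* 0.83 and *ZNF556* −0.92.

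**Figure D4:**
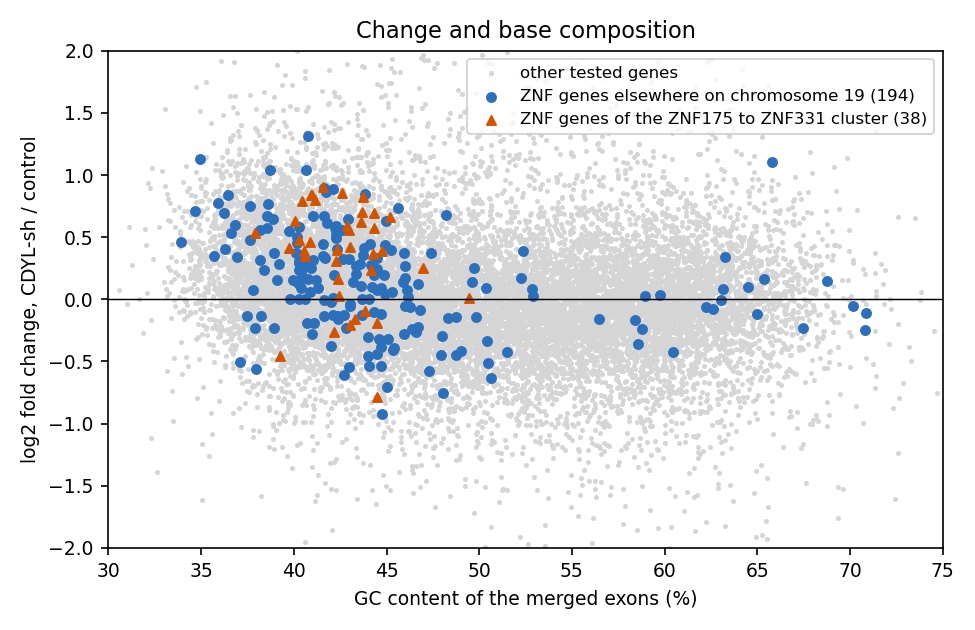
Log2 fold change (*CDYL*-sh over control) against GC content of the merged exons (%) for 194 ZNF genes elsewhere on chromosome 19 (blue), the 38 of the group from *ZNF175* to *ZNF331* (orange triangles) and 15474 of 15596 other tested genes that fall inside the axes (grey). Of the ZNF genes called higher, *ZNF254* lies furthest to the left at 34.7% GC and *ZNF524* furthest to the right at 65.8%.

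The genes were also divided by features of their proteins. Over all tested genes, 13.6% were higher and 12.1% lower. With a KRAB match, 24 of 202 tested genes were higher (11.9%) and 9 lower (4.46%), with a median log2 fold change of 0.21. Without one, 5 of 30 were higher (16.7%) and 2 lower (6.67%), with a median of 0.09. These 30 genes had a median GC content of 59.7%, against 42.6% for the KRAB genes. With offsets for GC content and length, 18 KRAB genes were higher and 12 lower, and 7 and 0 of those without a match. All genes then had 16.7% higher and 14.0% lower. Genes with up to 10 fingers had 9 higher (11.1%) and 8 lower (9.88%) of 81. Those with 11 to 14 had 8 (9.64%) and 2 (2.41%) of 83, and those with more than 14 had 12 (17.6%) and 1 (1.47%) of 68. With the offsets the 3 classes had 10 and 9, 7 and 3, and 8 and 0, so the last class no longer had the most higher genes. The GC medians of these 3 classes were 43.8%, 42.6% and 42.3%. The contribution of GC content, abundance and position to these splits was not tested.

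The 5 ZNF genes with the highest mean FPKM were not called in the fit without offsets. They were *ZNF428* with a mean of 70.5 FPKM, *ZNF787* with 55.4, *ZNF544* with 40.2, *ZNF581* with 38.3 and *ZNF675* with 34.4 FPKM. *ZNF787* had 79.7 and 82.7 CPM in control and 90.4 and 91.7 CPM in *CDYL*-sh, so that the groups did not overlap, but the difference of 0.17 ± 0.10 did not pass (adjusted p = 0.256). *ZNF428* had 55.4 and 62.9 CPM against 57.5 and 62.99 CPM (0.03 ± 0.11, adjusted p = 0.892), and its groups overlapped. *ZNF358* had 45.1 and 47.4 CPM against 49.8 and 52.5 CPM (0.14 ± 0.11, adjusted p = 0.369), again with no overlap. *ZNF544* (0.25 ± 0.14), *ZNF581* (0.34 ± 0.13) and *ZNF675* (0.24 ± 0.12) had adjusted p-values of 0.211, 0.0696 and 0.139. With offsets for GC content and length, *ZNF544* (0.41, adjusted p = 0.0189), *ZNF581* (0.32, adjusted p = 0.0213) and *ZNF358* (0.27, adjusted p = 0.0323) passed as higher. *ZNF544* also passed without control 1 (0.0391), and *ZNF581* without control 2 (0.00389) and without library 1 of *CDYL*-sh (0.0478).

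ZNF genes with a known role were mostly not called. The retroelement repressors *ZNF91*, which acts on SVA elements, and *ZNF93*, which acts on LINE-1, measured 9.48 and 6.29 CPM and 4.49 and 3.58 CPM in control. In *CDYL*-sh they measured 9.11 and 10.6 CPM (0.31 ± 0.20, adjusted p = 0.267) and 5.32 and 6.44 CPM (0.53 ± 0.22, adjusted p = 0.0856). The groups overlapped for *ZNF91* and not for *ZNF93*. *ZNF91* had 0.63 without control 1, where it passed (adjusted p = 0.0304), 0.05 without control 2 and 0.08 with offsets for GC content and length. *ZNF274*, whose protein binds the 3′ ends of ZNF genes and brings SETDB1 there, had 42.7 and 44.9 CPM in control and 48.1 and 44.5 CPM in *CDYL*-sh (0.08 ± 0.11, adjusted p = 0.644). The imprinted gene *ZNF331* had 16.2 and 11.2 CPM against 14.1 and 13.5 CPM (0.01 ± 0.17, adjusted p = 0.978), with the *CDYL*-sh libraries between the controls. *ZNF224*, a KRAB repressor and WT1 partner, had 4.81 and 2.83 CPM against 5.07 and 7.30 CPM (0.67 ± 0.26, adjusted p = 0.0622). It passed without control 1 (adjusted p = 0.0109) and without library 1 of *CDYL*-sh (adjusted p = 0.0168). It also passed with RLE or upper-quartile scaling, with either other filter on low counts, and with offsets and replicate block together (adjusted p from 0.0194 to 0.0459). *ZNF582* (−0.54) and *ZNF671* (−0.14), whose promoters are methylated in cervical and other carcinomas, and *ZNF304* (−0.23), which silences tumour suppressor genes in colorectal cancer cells, had adjusted p-values of 0.126, 0.635 and 0.395. *ZNF568*, whose mouse counterpart represses a placental *Igf2* promoter, had −0.19, *ZNF296*, a heterochromatin-binding factor, −0.23, and *ZNF653*, a repressor of the nuclear receptor SF-1, −0.01, with adjusted p-values from 0.355 to 0.977.

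The proteins with which KRAB zinc finger proteins act were read from a list of 31 genes, of which 30 were tested and *ZFP57* was listed at 0. Of the 30, 5 were higher, 6 lower and 19 did not pass, with a median log2 fold change of −0.06, where 13.6% of all genes were higher and 12.1% lower. Of the same 30, 4 were higher and 7 lower once the GC and length offsets were added, since *ATF7IP* lost its call and the deacetylase gene *HDAC2* gained one (−0.47, adjusted p = 0.00122). The scaffold *TRIM28* itself, also on chromosome 19, had 768 and 773 CPM in control and 644 and 649 CPM in *CDYL*-sh, and the difference of −0.25 did not pass (adjusted p = 0.0895) although the groups were apart. *SETDB1* had −0.14 (adjusted p = 0.427). The related *TRIM24* rose from 25.8 and 18.95 to 31.9 and 37.4 CPM (0.63 ± 0.15, adjusted p = 0.00426) and *TRIM33* from 23.7 and 18.8 to 32.0 and 30.8 CPM (0.56 ± 0.14, adjusted p = 0.00540). *SMARCAD1*, a chromatin remodeller that binds TRIM28, rose from 12.3 and 8.44 to 17.6 and 17.7 CPM (0.76 ± 0.17, adjusted p = 0.00362), and *MPHOSPH8* of the HUSH complex and the SETDB1 partner *ATF7IP* were the other 2 that rose, *ATF7IP* by 0.39 (adjusted p = 0.0271) and by 0.16 with the offsets (adjusted p = 0.221). Among those that fell, *UHRF1*, which recruits DNMT1 to replicated DNA, went from 163 and 168 to 93.0 and 83.5 CPM (−0.91 ± 0.11, adjusted p = 1.13e-05). The DNA methyltransferase *DNMT3A* went from 71.9 and 71.6 to 44.1 and 41.4 CPM (−0.74 ± 0.11, adjusted p = 0.0001002), and *CHD3* of NuRD from 148.8 and 139.5 to 103 and 85.1 CPM (−0.61 ± 0.11, adjusted p = 0.000722). The HP1 gene *CBX5* and the H3K9 methyltransferase genes *SUV39H1* and *EHMT1* were the other 3 that fell. The groups did not overlap in any of the 6 genes given with their CPM as changed. These 6 were picked by their adjusted p in the same libraries, so the separation follows from the choice. Over all tested genes, both *CDYL*-sh libraries lay above both controls in 32.5% and below both in 31.8%.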

How the data were processed

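RNA had been sequenced as paired-end reads from TruSeq RNA libraries of 2 control and 2 *CDYL*-sh samples of Ishikawa cells. The submitters' processing notes name TopHat 2.0.0, RSEM, edgeR and GRCh38.p10, and the paper states an orientation mode for the alignment. An annotation release, and whether counting used strand, are not given in the sources used here. The deposited table gives expected counts, which the authors estimated with RSEM and did not normalize, and FPKM, which the authors scaled by gene length and depth. Positions, exons and coding sequences came from GENCODE release 44. Fingers and KRAB boxes (phmmer, E under 1e-05, query the first 80 residues of ZNF10) were read from its translated canonical coding sequences, since no protein table was at hand, and promoters from RefSeq.

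Expected counts were rounded, filtered with filterByExpr, normalized by TMM and tested over all 16158 genes with the quasi-likelihood test of edgeR 4.0.16 (R 4.3.3), *CDYL*-sh against control, n = 2 each, Benjamini-Hochberg threshold 0.05. The prior count was 2, the common dispersion 0.00971, and each standard error (SE) belongs to a log2 fold change. The script was tested on simulated data. Offsets were smooths of log2 CPM on GC content and length for each library (mgcv 1.9.3). Alternatives used limma 3.58.1, DESeq2 1.42.0, other normalizations, filters and FPKM.

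The genes and lists were chosen with earlier results of these data known. Named were the 8 largest called changes in each direction (mean of at least 1 CPM, groups not overlapping), the 5 highest by FPKM, the 3 most abundant not called, 15 with a known role and 6 of the corepressor list.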

Additional observations from a re-analysis of the deposited data

How the results depend on the processing

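With 2 libraries a group and a median of 5.43 CPM, small differences of most ZNF genes of chromosome 19 were not detectable. The 38 tested genes from *ZNF175* to *ZNF331* kept a median log2 fold change between 0.22 and 0.52 in the alternatives run. In ZNF genes of the chromosome, DESeq2 called 18 higher (7.93%) and 8 lower (3.52%), with 1812 (12.2%) and 1742 (11.7%) of all genes. Upper-quartile scaling called 34 and 9, with 2444 and 1763 of all genes. In the stretch from *ZNF175* to *ZNF331* they called 12 and 16 higher. At a threshold of 0.01, 12 ZNF genes were higher and 3 lower, with 6 higher in that stretch, and 1236 and 1060 over all genes. limma on log2(FPKM + 1) called 0 ZNF genes (31 higher and 14 lower at an unadjusted p under 0.05), 0 in the stretch, and 6 higher and 8 lower of all genes. On log2(FPKM + 0.1) it called 0 (31 and 16 unadjusted), 0 in the stretch, and 11 and 11 of all genes, and *CDYL* at −2.29 had an adjusted p of 0.0801. With a mean-variance trend, chosen after the data were seen, 1 ZNF gene was higher and 0 lower with either pseudocount, 0 in the stretch, with 224 and 237 of all genes for a pseudocount of 1 and 255 and 252 for 0.1. Why the FPKM gave fewer calls was not tested.

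Leaving out 1 library at a time gave 10 to 42 higher and 1 to 17 lower ZNF genes, 3 to 16 higher in the stretch, and 1159 to 2078 higher and 923 to 1928 lower of all genes. Control 1 and 2 differed in most ZNF genes, 173 of 232 being higher in control 1.

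The labels number the libraries 1 and 2 in both groups, but deviations of same-numbered libraries had a correlation of 0.03, so the numbers were not taken as pairs. With a replicate block, 33 ZNF genes were higher and 12 lower, 17 higher in the stretch and 2812 and 2581 over all genes. With the block and offsets for GC content and length they were 37, 18, 15, 3298 and 2797.

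Some genes that did not pass in the main test changed sign. *ZNF653* (−0.01) had 0.014 with upper-quartile scaling, 0.0036 by library size, 0.25 and 0.26 on FPKM with pseudocounts of 1 and 0.1, 0.019 with GC offsets, 0.038 with GC and length offsets, 0.037 with the block added, and −0.17 to 0.13 without 1 library. *ZNF331* (0.01) had −0.0033 with no filter, −0.14 and −0.15 on FPKM, and −0.23 to 0.29 without 1 library. *ZNF224* had −0.014 and −0.028 on FPKM, *ZNF671* 0.017 with GC and length offsets and 0.012 with the block added, and *ZNF428* −0.072 to 0.12 without 1 library. The cause was not tested.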
